A study of Mus musculus with 12 samples.

Results

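The genes described here are the nuclear genes for subunits of the mitochondrial respiratory chain and the ATP synthase, measured in fibroblasts taken into primary culture from mouse embryos. They were chosen by symbol, as every row of the count table that begins with Ndufa, Ndufb, Ndufc, Ndufs or Ndufv and a digit, with Uqcr, with Cox4 to Cox8 or with Atp5, together with Sdha, Sdhb, Sdhc and Sdhd. This gave 84 of the 24054 genes in the table, of which 35 belong to complex I, 4 to complex II, 8 to complex III, 19 to complex IV and 15 to complex V. The remaining 3 carry a matching symbol but are not subunits in the strict sense, namely Cox7a2l, a factor that joins complexes into supercomplexes, Atp5s, a coupling factor, and Atp5sl, an assembly protein. Of the 84 genes, 80 passed edgeR's filter on low counts and were tested.

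Complexes I and II pass electrons from NADH and succinate to ubiquinone, complex III passes them on to cytochrome c, and complex IV hands them to oxygen. Complexes I, III and IV pump protons as they do so, and complex V, the ATP synthase, lets the protons flow back to make ATP. Most subunits are encoded in the nucleus and imported, and complex IV in particular has subunits with alternative isoforms for muscle, testis or low oxygen.

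Libraries came from wild type (WT) cells and from cells labelled Blm -/-, Recql -/- and Blm -/- Recql -/-, here called Blm KO, Recql-labelled and double-labelled, with 3 libraries each and 12 in all. Blm and Recql encode DNA helicases of the RecQ family, and the design asks which transcripts differ from WT when 1 or both are lacking. Every culture was kept at 3% O2 and 5% CO2 in medium with 10% serum, and polyadenylated RNA was sequenced from stranded libraries. The alleles, the mouse strain, the age of the embryos, and whether libraries of 1 genotype came from separate embryos or cultures are not given in the labels, so the p-values reflect how much these 12 libraries differ from one another, which could in part be technical.

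Library totals were 47758552 to 59296354 counts, so 3 counts were worth 0.0506 to 0.0628 CPM, the count scaled to library size. Blm stood at 18.6 to 21.9 CPM in WT, 3.18 to 5.64 in Blm KO and 3.86 to 6.99 in double-labelled libraries. In Recql-labelled libraries, which do not carry the Blm label, it stood at 14.3 to 16.4 CPM, below the lowest WT value. Recql overlapped between WT and the libraries that carry its label: it stood at 25.7 to 29.3 CPM in WT, 21.7 to 29.8 in Recql-labelled and 18.8 to 35.6 in double-labelled libraries, with 2 of 3 libraries of each labelled group below the lowest WT value. In Blm KO libraries, which do not carry the Recql label, it stood at 21.3 to 24.1 CPM. Transcript level therefore does not check the Recql label, and every direction given below for these libraries rests on the label alone. Recql-labelled replicate 2 held 310 CPM of Xist, which is made by female cells, together with 14.9 CPM of the Y-linked Ddx3y. Xist also stood at 11.7 CPM in Blm KO replicate 1, 10.25 in double-labelled replicate 2 and 3.08 in WT replicate 2. All 3 WT libraries, Blm KO replicate 1, Recql-labelled replicate 1 and double-labelled replicate 2 had Ddx3y at 124 CPM or more and the other 5 libraries were at or below 3.75 CPM. Those 5 held Xist at 362.5 to 472.9 CPM. High Ddx3y was thus found in every WT library but in 1 of 3 libraries of each other genotype. Contrasts against WT therefore compare genotypes and, in part, cells of different sex. Fits that took Y-linked transcripts into account are given further below. Fibroblast collagen Col1a1 was at 4555 CPM or more in every library, and the muscle regulators Myod1 and Myog were at or below 0.254 CPM. The muscle markers Des and Acta1 were detected in every library, at 8.46 to 150 and 11.6 to 101 CPM.

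Transcripts of the 84 genes made up 0.476% to 0.558% of all counts in a library. Compared per kilobase of transcript in WT, the level of the ATP synthase beta subunit Atp5b was the highest at 385 CPM per kilobase, followed by the alpha subunit Atp5a1 at 199 and the housekeeping complex IV subunit Cox4i1 at 194. The muscle isoform Cox7a1 had 0.70 CPM per kilobase and Cox6a2, also a muscle isoform, had 0.26. Cox8b and Cox8c had 0 counts in all 12 libraries and Cox7b2 reached at most 0.0527 CPM, about the level of 3 counts. These 3 and Cox6a2 are the 4 genes that were not tested. Replicates lay close together for most members, with a median coefficient of variation of 7.92% in WT, 6.38% in Blm KO, 5.13% in Recql-labelled and 7.37% in double-labelled libraries.

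One core subunit per complex shows the general pattern. Ndufs1, the large iron-sulfur subunit of complex I, had 104, 103 and 97.2 CPM in WT, 88.4, 95.6 and 95.5 for Blm KO, 96.8, 94.6 and 94.1 in Recql-labelled and 92.4, 106 and 93.9 in double-labelled libraries. Sdha, the flavoprotein of complex II, had 191, 190 and 192 CPM in WT, 181, 188 and 184 for Blm KO, 179, 178 and 174 in Recql-labelled and 173, 192 and 185 in double-labelled libraries. For both genes all Blm KO and all Recql-labelled libraries lay below the 3 WT libraries by a small margin, while double-labelled replicate 2 was the highest of all 12. Uqcrc1, a core protein of complex III, had 83.0, 94.4 and 85.5 CPM in WT, 81.2, 84.1 and 84.1 for Blm KO, 83.3, 84.4 and 83.1 in Recql-labelled and 79.2, 99.8 and 89.4 in double-labelled libraries. For Cox4i1 the values were 155, 141 and 148 CPM in WT, 147, 163 and 157 for Blm KO, 164, 144 and 137 in Recql-labelled and 146, 147 and 171 in double-labelled libraries. Atp5b stood at 663, 815 and 737 CPM in WT, 615, 749 and 689 for Blm KO, 692, 691 and 664 in Recql-labelled and 690, 848 and 775 in double-labelled libraries. Groups overlapped in all pairs for Uqcrc1, Cox4i1 and Atp5b. None of these 5 core subunits passed the edgeR test against WT in any genotype.

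In Blm KO, levels of the respiratory chain transcripts lay close to those in WT. Of 80 tested members 0 were called higher and 1, Ndufs5, was called lower at an adjusted p under 0.05 (edgeR quasi-likelihood test with Benjamini-Hochberg adjustment over all 14876 genes), beside 0.363% higher and 0.39% lower (0.753% in either direction) among all tested genes. The median log2 fold change was 0.05 over the members and 0.00 over all genes. Of the 80 members 78 lay within 1.5-fold of WT, beside 12669 of all 14876 genes. An unadjusted p under 0.05 was found for 2 members, beside 2806 of all genes. The 2 members were Ndufs5 and the accessory complex I subunit Ndufa13 (log2 fold change 0.23, edgeR adjusted p = 0.181). Summed over the 84 genes, the Blm KO libraries had 5046, 5509 and 5373 CPM and the WT libraries 5176, 5355 and 5364, a ratio of 1.00 (exact permutation test, two-sided, p = 0.8, where 3 against 3 cannot go below 0.1).

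**Figure D1:**
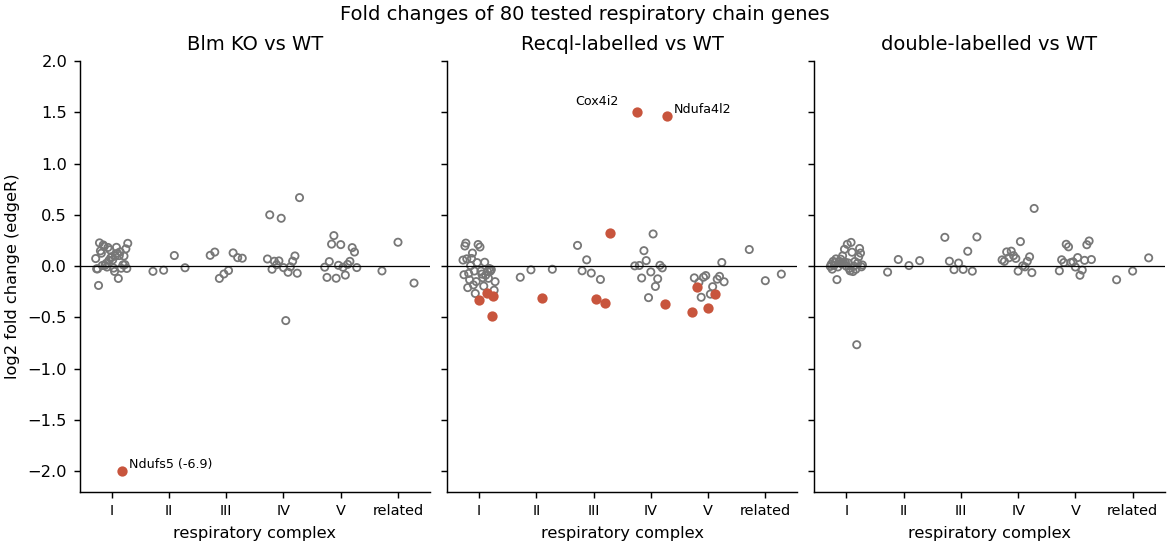
Each point is 1 of the 80 tested members, placed by complex, with its edgeR log2 fold change against WT on the y axis in 3 panels, 1 per genotype. Filled red points have an adjusted p under 0.05: 1 in Blm KO, 15 in Recql-labelled and 0 in double-labelled libraries. Ndufs5 in Blm KO is drawn at the lower end of the axis and its true value, -6.94, lies beyond it.

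The single call in Blm KO concerned a gene with a near-identical copy in the count table. Ndufs5, an accessory subunit of complex I, lies at chr4:123712710-123718202 on the minus strand of mm10. BC002163, annotated as a processed pseudogene of 319 bases, lies at chr16:42955631-42955949 on the plus strand. It matches bases 1 to 319 of the 321 coding bases of Ndufs5 at all but 2 positions. Counted from 1 at the coding start, these are T81C and A105G, with the Ndufs5 base first. Coding bases 51 to 135 of both, from the GENCODE M21 transcripts, are shown because they hold every difference, and the differing bases are in capitals:
Ndufs5: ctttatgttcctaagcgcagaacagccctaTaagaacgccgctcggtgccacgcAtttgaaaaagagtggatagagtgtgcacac
BC002163: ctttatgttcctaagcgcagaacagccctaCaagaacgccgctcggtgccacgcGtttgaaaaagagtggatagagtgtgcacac

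Expected counts assigned to Ndufs5 were 451, 1249 and 1250 in WT, 2.23, 9.60 and 13.4 for Blm KO, 427, 1353 and 1054 in Recql-labelled and 36.4, 913 and 810 in double-labelled libraries. Those assigned to BC002163 were 1378, 432 and 183 in WT, 1632, 1884 and 1811 for Blm KO, 1599, 446 and 382 in Recql-labelled and 1594, 1036 and 903 in double-labelled libraries. Where one was low the other was high, also between libraries of 1 genotype. Ndufs5 held 24.7%, 74.3% and 87.2% of the pair's level in WT, and 0.122%, 0.528% and 0.713% in Blm KO. In Recql-labelled libraries the share was 21.1%, 75.2% and 73.4%, and in double-labelled libraries it was 2.21%, 46.8% and 47.3%.

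The sum of both levels, as mean ± SD over 3 libraries, was 30.01 ± 3.41 CPM for WT, 30.7 ± 2.82 for Blm KO, 32.6 ± 4.32 for Recql-labelled and 32.1 ± 1.87 for double-labelled libraries, and all groups overlapped. For Ndufs5 alone, edgeR gave a log2 fold change of -6.94 (SE 1.19, adjusted p = 0.0313) between Blm KO and WT, and with the copies summed it gave 0.03 (adjusted p = 0.906). The call on Ndufs5 alone was also lost when any 1 of the 6 libraries of these groups was left out, with edgeR adjusted p of 0.0582 to 0.167. The split of reads between sequences with 2 differing bases is uncertain, so the files give a level for the pair and not a firm one for Ndufs5. The strand setting of the counting is not given in the sources used here.

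**Figure D2:**
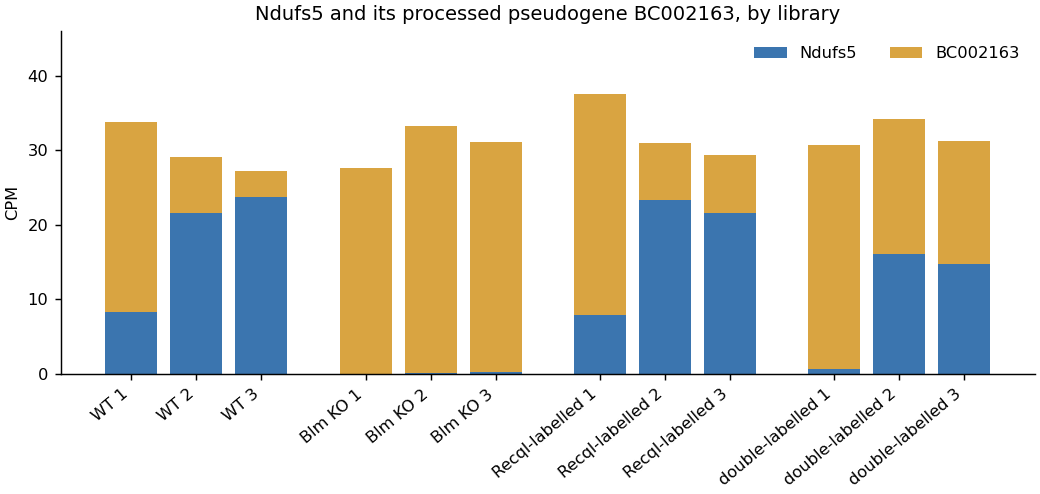
Stacked bars give the CPM assigned to Ndufs5 (blue) and to its processed pseudogene BC002163 (ochre) in each of the 12 libraries, grouped by genotype with replicates 1 to 3. The height of the whole bar stays between 27.2 and 37.5 CPM while the blue part runs from 0.122% to 87.2% of it.

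In Recql-labelled libraries against WT, most tested genes of complexes I, II, III and V lay slightly below 0. Complex IV was split, with 7 of 15 below 0, and 2 of its isoforms linked to low oxygen were higher. Of 80 tested members 12 were called lower (15%) and 3 higher (3.75%), beside 15.6% lower and 14.2% higher (29.9% in either direction) among all 14876 genes, so the share called lower was near the background and the share called higher was below it. The median log2 fold change was -0.09 over the members and -0.01 over all genes, and 56 of 80 members lay below 0. Changes were small: 78 of 80 members lay within 1.5-fold of WT, beside 10763 of all 14876 genes. The median size of the change was 0.13 on the log2 scale against 0.29 for all genes. Calls by complex were 4 lower and 0 higher of 35 in complex I, 1 and 0 of 4 in complex II, 2 and 1 of 8 in complex III, 1 and 2 of 15 tested in complex IV, and 4 and 0 of 15 in complex V. In bulk RNA, fewer cells of a type and less RNA per cell cannot be told apart.

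The ATP synthase genes lay on the same side of 0 in nearly every case. Of its 15 genes, 14 lay below 0 and 4 were called lower, with Atp5l, a small membrane subunit, the exception at 0.04. Atp5a1 (chr18:77773729-77782869), the alpha subunit of the catalytic F1 head, had 469, 504 and 501 CPM in WT and 354, 362 and 363 in Recql-labelled libraries. Blm KO had 487, 481 and 495 CPM, and double-labelled libraries had 434, 494 and 499. Every Recql-labelled library was below all 9 others. Atp5a1 was 1.37-fold lower than in WT (log2 fold change -0.45, SE 0.07, edgeR adjusted p = 0.00159).

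Atp5g2, which encodes the c subunit of the rotating ring, had 55.6, 69.4 and 68.4 CPM in WT and 45.7, 48.1 and 51.7 in Recql-labelled libraries, without overlap (log2 fold change -0.41, edgeR adjusted p = 0.0237). Atp5j, coupling factor 6 of the peripheral stalk, had 70.7, 72.5 and 76.5 CPM in WT and 61.4, 60.8 and 60.2 in Recql-labelled libraries, also without overlap (-0.27, edgeR adjusted p = 0.0119). Atp5c1, the gamma subunit that forms the central shaft, was called at -0.20 (edgeR adjusted p = 0.0342). The catalytic beta subunit Atp5b stood at -0.11 and did not pass.

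The 4 called genes of complex I included the core subunits Ndufs8 (-0.49, edgeR adjusted p = 0.0371) and Ndufv1 (-0.29, adjusted p = 0.0447) and the accessory subunit Ndufb5 (-0.33, adjusted p = 0.013). Ndufb5 had 36.6, 32.4 and 33.6 CPM in WT, 36.1, 34.8 and 38.1 for Blm KO, 29.2, 27.4 and 25.04 in Recql-labelled and 32.9, 33.2 and 36.4 in double-labelled libraries, the Recql-labelled values again being the lowest 3. Ndufs8, which carries iron-sulfur clusters, had 28.7, 25.9 and 24.9 CPM in WT, 24.6, 27.1 and 28.7 for Blm KO, 19.8, 18.8 and 18.1 in Recql-labelled and 22.8, 28.4 and 38.4 in double-labelled libraries. The Recql-labelled libraries lay below all others. For Ndufv1, the subunit that binds NADH, the highest Recql-labelled value of 40.8 CPM lay above the lowest WT value of 39.6. The other 31 complex I genes were not called, and 11 of all 35 lay above 0.

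In complex III, Uqcrc2 (chr7:120635176-120659524), a core protein, had 109, 109 and 107 CPM in WT, 103, 105 and 108 for Blm KO, 85.8, 86.6 and 87.6 in Recql-labelled and 100, 108 and 110 in double-labelled libraries. It was 1.25-fold lower than in WT (log2 fold change -0.32, SE 0.06, edgeR adjusted p = 0.0023), with no overlap with any other genotype. Uqcrh, the hinge protein, had 100, 75.6 and 88.4 CPM in WT and 73.9, 65.7 and 65.9 in Recql-labelled libraries, a narrow gap (-0.36, edgeR adjusted p = 0.0376). Uqcrq, a small ubiquinone-binding subunit, went the other way, from 23.2, 27.4 and 24.97 CPM in WT to 29.7, 32.8 and 32.1 (0.33, edgeR adjusted p = 0.0361). Sdhc, a membrane anchor of complex II, was the complex II gene called lower (-0.31, edgeR adjusted p = 0.0266), while Sdha, Sdhb and Sdhd stood between -0.11 and -0.03.

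**Figure D3:**
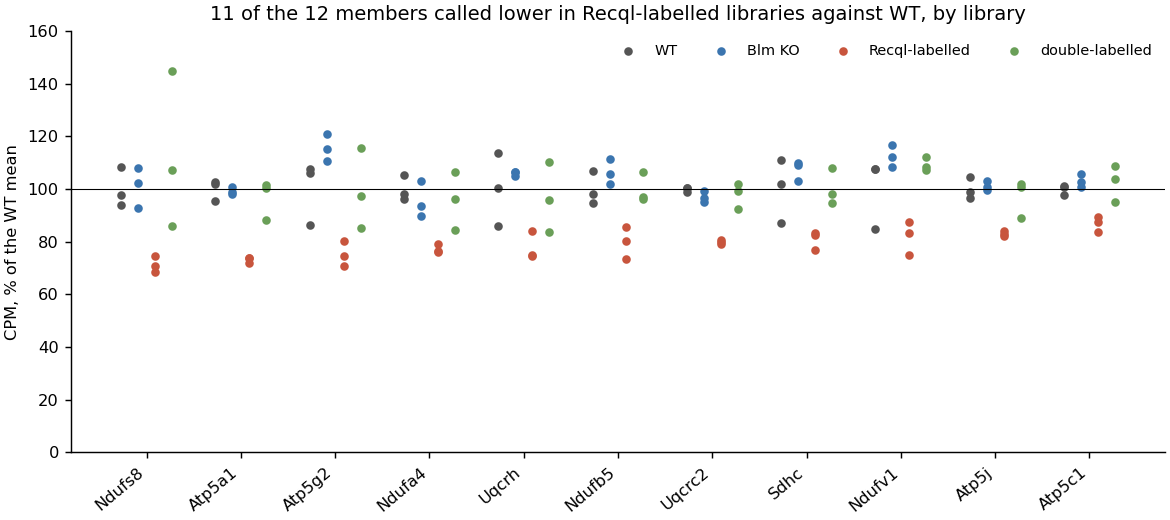
Points give each library's CPM as a percentage of the WT mean (y axis) for 11 of the 12 members called lower in Recql-labelled libraries against WT (x axis), coloured by genotype. Recql-labelled points lie below 100% for all 11 genes, and for Ndufv1 they overlap the WT points.

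Complex IV differed from the rest, since its 3 calls concerned isoform pairs. Ndufa4 and Ndufa4l2 are a housekeeping subunit and its low-oxygen counterpart, first assigned to complex I and now counted with complex IV. Ndufa4 had 58.6, 57.5 and 62.8 CPM in WT, 53.5, 61.4 and 55.7 for Blm KO, 45.4, 47.2 and 45.6 in Recql-labelled and 57.3, 50.4 and 63.6 in double-labelled libraries. All Recql-labelled values lay below the others (-0.37, SE 0.09, edgeR adjusted p = 0.011). Ndufa4l2 (chr10:127514967-127517154) had 14.1, 11.9 and 11.6 CPM in WT, 27.7, 13.8 and 18.4 for Blm KO, 21.6, 28.02 and 54.2 in Recql-labelled and 14.9, 26.8 and 13.98 in double-labelled libraries. Recql-labelled replicate 3 was the highest by far, and the group did not overlap WT but overlapped Blm KO and double-labelled libraries. It was 2.76-fold higher than in WT (log2 fold change 1.46, SE 0.38, edgeR adjusted p = 0.0156).

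Cox4i2 (chr2:152754173-152765037), the isoform of subunit 4 known for expression in lung and under low oxygen, had 2.62, 2.33 and 2.88 CPM in WT, 4.93, 2.44 and 3.71 for Blm KO, 5.24, 6.80 and 10.2 in Recql-labelled and 3.62, 3.13 and 1.35 in double-labelled libraries. The Recql-labelled libraries lay above all 9 others. It was 2.83-fold higher than in WT (log2 fold change 1.502, SE 0.38, edgeR adjusted p = 0.0136). Per kilobase, Cox4i2 stood at 1.84% ± 0.17 of the level of Cox4i1 in WT and 5.34% ± 2.24 in Recql-labelled libraries (SD, n = 3 each), against 2.52% in Blm KO and 1.88% in double-labelled libraries. Ndufa4l2 stood at 13.8% ± 1.84 of Ndufa4 in WT and 49.2% ± 24.9 in Recql-labelled libraries, against 23.4% in Blm KO and 22.01% in double-labelled libraries. In each library both housekeeping isoforms had the higher level per kilobase. Without Recql-labelled replicate 3 neither isoform passed: Cox4i2 was at 1.21 (edgeR adjusted p = 0.0502) and Ndufa4l2 at 0.99 (adjusted p = 0.0545). Without WT replicate 3, Ndufa4l2 was at 1.42 (adjusted p = 0.0542).

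The remaining alternative isoforms showed no call. The testis isoform Cox6b2 had 3.92, 4.29 and 6.92 CPM in WT, 8.20, 5.18 and 7.51 for Blm KO, 3.85, 3.46 and 4.91 in Recql-labelled and 5.83, 2.53 and 7.58 in double-labelled libraries, and all groups overlapped except Blm KO and Recql-labelled. Cox7a1 reached at most 0.56 CPM and Cox6a2 at most 0.39 CPM in any library. Of the 8 listed isoforms, 4 were tested, and Cox4i2 and Ndufa4l2 were the 2 called.

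**Figure D4:**
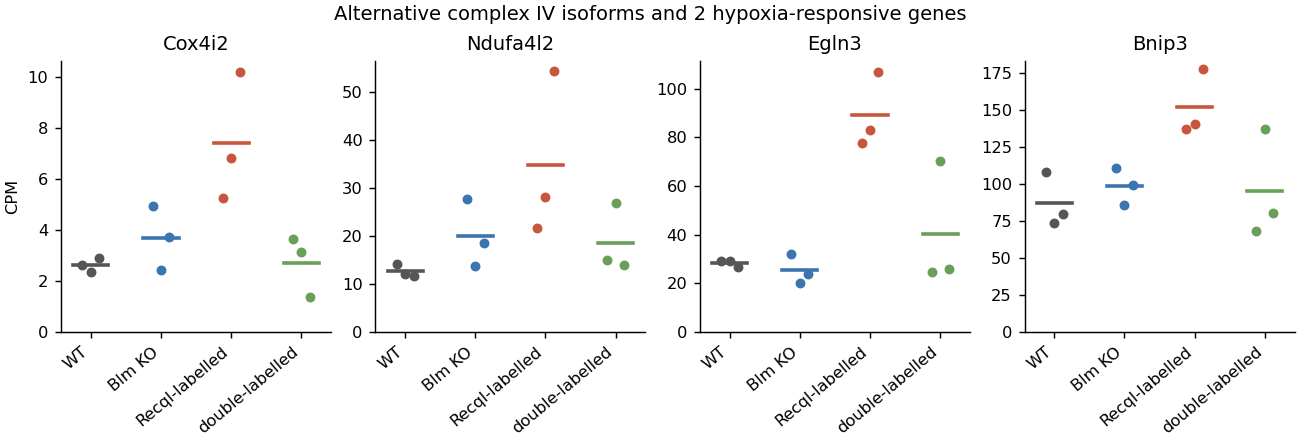
Points give CPM by library and bars the mean of 3 libraries for Cox4i2 and Ndufa4l2, and for Egln3 and Bnip3, which are known to respond to low oxygen. Recql-labelled libraries lie highest for Cox4i2 and Egln3, and double-labelled replicate 2 lies apart from its group for Ndufa4l2, Egln3 and Bnip3.

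Some genes known to respond to low oxygen were also called in the Recql-labelled libraries. From a list of 8 such genes and supercomplex factors, 3 were called higher and 0 lower against WT, beside 14.2% higher and 15.6% lower among all genes, and the other 5 did not pass. The 3 were Vegfa, a vessel growth factor (1.01, edgeR adjusted p = 0.00157), Egln3, an oxygen-sensing hydroxylase (1.66, adjusted p = 0.00727), and Bnip3, a mitophagy receptor (0.80, adjusted p = 0.0328). Egln3 had 29.0, 29.2 and 26.5 CPM in WT, 32.0, 20.3 and 23.8 for Blm KO, 77.8, 82.9 and 107 in Recql-labelled and 24.8, 70.2 and 25.9 in double-labelled libraries. The pyruvate dehydrogenase kinase Pdk1 stood at 0.46 (adjusted p = 0.149) and did not pass. All cells were kept at 3% O2 according to the labels, and the oxygen or cell density at harvest was not given in the sources used here. The part of these genes in the values of Cox4i2 and Ndufa4l2 was not tested.

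Other mitochondrial gene lists also held calls in Recql-labelled libraries, to be read against the same 14.2% higher and 15.6% lower among all genes. Among 45 tested assembly factors for the complexes 9 were called higher and 6 lower, led by Sdhaf2, which helps attach the flavin of complex II (0.44, edgeR adjusted p = 0.00135), and Oxa1l, an inner membrane insertase (-0.48, adjusted p = 0.00532). Among 18 enzymes of pyruvate oxidation and the citric acid cycle 0 were higher and 5 lower, with the mitochondrial NADP-dependent isocitrate dehydrogenase Idh2 the lowest, at 78.3 ± 9.96 CPM in WT and 28.2 ± 4.43 in Recql-labelled libraries (SD, n = 3 each; -1.47, edgeR adjusted p = 0.000297). Of 77 mitochondrial ribosome proteins 2 were higher and 7 lower, led by Mrpl48 (-0.64, adjusted p = 0.0015). Of 26 import genes Timm17b was lower (-0.48) and Timm17a higher (0.38). Among 18 regulators of mitochondrial gene expression and biogenesis the call was Tfb1m, an rRNA methyltransferase (-0.74, adjusted p = 0.00211). Of 7 tested subunit or cytochrome c genes outside the symbol rule, Uqcc1, a complex III assembly factor that stands in 2 of these lists, was higher (0.27). In Blm KO and double-labelled libraries against WT, edgeR called 0 genes in each of these lists.

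Markers of cell identity were called in the same contrast, in which 14.2% of all genes were higher and 15.6% lower. Among 10 fibroblast markers Col3a1, Col1a2 and Col1a1 were called lower and Dcn higher in Recql-labelled libraries, and the summed level of the list was 21800 to 27040 CPM against 32580 to 35600 in WT. Of 4 tested muscle markers 2 were lower, of 4 brown adipocyte markers 2, of 5 endothelial markers 3 and of 5 epithelial markers 3, while 2 of 5 neural markers were higher. Of 5 tested macrophage and blood markers 1 was lower, and of 3 male germ line markers 1. Summed levels were 3.08 to 4.49 CPM for the 6 endothelial markers against 12.2 to 20.2 in WT and 1.30 to 2.70 CPM for the 6 epithelial markers against 8.54 to 28.2 in WT. Krt14 was at 0 in all 3 Recql-labelled libraries. Summed muscle markers stood at 99.3 to 120 CPM against 62.2 to 121 in WT. Within this sum Des was at 8.46 to 22.6 CPM against 40.5 to 61.1 in WT. Acta1 was at 90.7 to 101 CPM against 19.6 to 59.2 in WT. Of the brown adipocyte markers, Ucp1, Cidea, Adipoq and Plin1 were at or below 0.0865 CPM everywhere. Prdm16, Fabp4, Pparg and Dio2 were detected, at up to 13.7, 25.5, 24.4 and 8.13 CPM. The part of these differences in the respiratory chain values was not tested.

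Summed over all 84 genes, the Recql-labelled libraries had 4884, 4854 and 4792 CPM, below all 3 WT libraries (5176, 5355 and 5364) at a ratio of 0.914. By complex the ratio was 0.939 for I, 0.917 for II, 0.915 for III, 1.00 for IV and 0.865 for V. For the whole set and for complexes I, II, III and V the groups did not overlap and the exact two-sided permutation p was 0.1, the smallest that 3 against 3 allows, so none of these could pass 0.05. Complex IV gave an exact permutation p of 0.7.

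**Figure D5:**
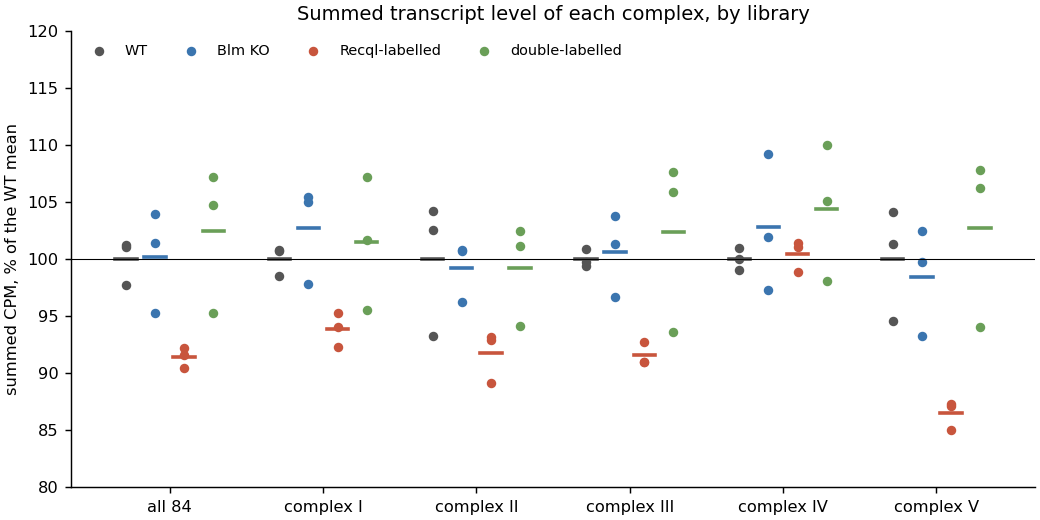
Points give each library's summed CPM for all 84 genes and for each complex as a percentage of the WT mean (y axis, which runs from 80 to 120), and short bars the mean of 3 libraries per genotype. Recql-labelled points lie below the WT points in every column except complex IV.

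Levels in the double-labelled libraries lay close to those in WT. In double-labelled libraries against WT, 0 of 80 members were called higher and 0 lower, beside 0.0739% higher and 0.0471% lower (0.121% in either direction) among all genes. At an unadjusted p under 0.05 there were 3 of 80 members, beside 1605 of 14876 genes. The 3 members were Atp5l (0.25), Uqcr10 (0.28) and Uqcrq (0.28), with edgeR adjusted p of 0.288 to 0.363. DESeq2 also called 0 members, beside 1.08% higher and 1.2% lower among all genes. The median log2 fold change was 0.04 against 0.01 over all genes. Ndufs5 stood at -0.77 (edgeR adjusted p = 0.793) and shares reads as described above, and Ndufa4l2 stood at 0.56 (adjusted p = 0.637). The summed level was 5050, 5552 and 5680 CPM, overlapping WT (ratio 1.02, exact permutation p = 0.5).

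Against Blm KO, the double-labelled libraries had 1 member called higher, Ndufs5, and 0 lower, beside 0.934% higher and 1.02% lower (1.96% in either direction) among all genes. Ndufs5 stood at 6.17 (edgeR adjusted p = 0.0307) and at 0.06 with BC002163 added. The median over the members was 0.00, as over all genes, and 3 members had an unadjusted p under 0.05.

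Against the Recql-labelled libraries, 15 of 80 members were called higher (18.75%) and 1 lower (1.25%) in double-labelled libraries, beside 13.2% higher and 11.6% lower (24.7% in either direction) among all genes. The share called higher was near the background and the share called lower was below it. This contrast shares the Recql-labelled libraries with the contrast against WT, so the values below stand beside those above and are not independent of them. The median log2 fold change was 0.11 over the members and 0.02 over all genes, and 64 of 80 lay above 0. In complex V all 15 genes lay above 0 and 5 were called higher: Atp5a1 (0.40, edgeR adjusted p = 0.0031), Atp5g2 (0.40), Atp5c1 (0.24), Atp5j (0.23) and Atp5o (0.22), the last being the stalk subunit that confers sensitivity to oligomycin. In complex I 7 of 35 were called higher. Ndufs8 had the largest log2 fold change, 0.66 (SE 0.16, edgeR adjusted p = 0.0122), although its double-labelled libraries spread from 22.8 to 38.4 CPM, followed by Ndufc1 (0.43), Ndufv1 (0.42), Ndufb11 (0.37), Ndufb5 (0.33) and Ndufa9 (0.25) among those named here.

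Ndufc1, an accessory subunit, had 11.6, 13.4 and 13.6 CPM in Recql-labelled and 16.9, 16.7 and 18.2 in double-labelled libraries, without overlap. Ndufv1 had 35.0, 38.9 and 40.8 CPM in Recql-labelled and 50.5, 50.01 and 52.4 in double-labelled libraries, also without overlap. Ndufb11, another accessory subunit, had 30.1, 37.4 and 38.6 CPM in WT, 39.4, 39.3 and 41.7 for Blm KO, 27.9, 30.4 and 29.96 in Recql-labelled and 36.9, 33.9 and 43.1 in double-labelled libraries. For Atp5g2 the double-labelled libraries had 62.8, 54.99 and 74.4 CPM, all above the Recql-labelled ones. Uqcrc2 (0.29, edgeR adjusted p = 0.00448), Sdhc (0.31) and Ndufa4 (0.31) were the calls in complexes III, II and IV. Cox4i2 was the 1 member called lower, at -1.45 (edgeR adjusted p = 0.0182), and without Recql-labelled replicate 3 it stood at -1.16 (adjusted p = 0.0667). Ndufa4l2 stood at -0.90 (adjusted p = 0.1) and did not pass. Double-labelled replicate 2 held 26.8 CPM of Ndufa4l2, above the lowest Recql-labelled value of 21.6 CPM.

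The interaction asks whether the change from Blm KO to double-labelled libraries differs from the change from WT to Recql-labelled libraries. It was called for 4 of 80 members, 3 higher (3.75%) and 1 lower (1.25%), beside 5.86% higher and 4.58% lower (10.4% in either direction) among all genes. For Atp5a1 the change was -0.45 on the WT side and -0.04 on the Blm KO side, a difference of 0.41 (SE 0.10, edgeR adjusted p = 0.0288). For Uqcrc2 it was -0.32 and 0.01, a difference of 0.33 (adjusted p = 0.0252). For Cox4i2 it was 1.502 and -0.45, a difference of -1.96 (SE 0.53, adjusted p = 0.0416). Ndufs5 was the fourth and gave -0.06 (adjusted p = 0.852) with its copy added. Of 12 fits that each left out 1 library, edgeR kept the call of Uqcrc2 in 5, of Atp5a1 in 4 and of Cox4i2 in 3, with adjusted p up to 0.0746, 0.0758 and 0.0928, and Cox4i2 also missed the threshold with the replicate block (adjusted p = 0.0643).

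Few of the calls held when single libraries were left out. Of the 15 members called in Recql-labelled libraries against WT, Atp5a1, Atp5j, Ndufa4 and Uqcrc2 kept their call without any 1 of the 6 libraries compared. The number called lower was 7 without WT replicate 2, 5 without WT replicate 3, and 6, 5 and 5 without Recql-labelled replicates 1, 2 and 3, while the number called higher fell to 1 without WT replicate 3 and 0 without Recql-labelled replicate 3. The share called lower over all genes was 12.6% and 10.2% without WT replicates 2 and 3, and 8.84% to 11.7% without a Recql-labelled library. The share called higher over all genes was 9.49% without WT replicate 3 and 11.3% without Recql-labelled replicate 3. Of the 16 calls between double- and Recql-labelled libraries, Atp5a1, Ndufs8 and Uqcrc2 were kept in the same way. The number called higher there was 6, 4 and 7 without Recql-labelled replicates 1, 2 and 3 and 5 without double-labelled replicate 3. The share called higher over all genes was then 7.29%, 7.2%, 9.34% and 8.76% in the same order.

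Promoter sequence was not used by the symbol rule, and the NRF1, ETS and YY1 motifs were each more frequent in the members scanned than among all genes. Windows from 250 bases before to 50 bases after the annotated start were available for 69 of the 84 members in the RefSeq table (GRCm38.p6). On either strand, the motif of NRF1, a regulator of nuclear genes for mitochondria, made of GCGCA and GCGC with 1 base of any kind between them, was in the windows of 17 members (24.6%) and of 5.19% of 27025 genes. The ETS motif CCGGAAG, bound by GABP among others, was in 16 members (23.2%) against 9.93% of genes, and the YY1 motif AAGATGGCG was in 8 (11.6%) against 1.64%. The CCAAT box was in 31 (44.9%) against 41.1%. A gene with several starts counted as having a motif if any of its windows held it, and a match describes letters and not binding. Of the 8 scanned members among the 15 called in Recql-labelled libraries, 2 held the NRF1 motif, 3 the ETS motif, 1 the YY1 motif and 3 a CCAAT box.

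Stretches upstream of 3 of these genes are shown 5′ to 3′ along the gene, with the matches in capitals, for 2 subunits called lower and for Ndufs5. Each lies within the 250 bases before the start and is free of exons annotated in GENCODE M21. Ndufs8 (chr19:3912775-3913024, minus strand) holds CCAAT at 3 places, Uqcrh (chr4:116075072-116075268, minus strand) holds CCAAT and the ETS motif on the opposite strand, and Ndufs5 (chr4:123718203-123718436, minus strand) holds the NRF1 motif:
Ndufs8: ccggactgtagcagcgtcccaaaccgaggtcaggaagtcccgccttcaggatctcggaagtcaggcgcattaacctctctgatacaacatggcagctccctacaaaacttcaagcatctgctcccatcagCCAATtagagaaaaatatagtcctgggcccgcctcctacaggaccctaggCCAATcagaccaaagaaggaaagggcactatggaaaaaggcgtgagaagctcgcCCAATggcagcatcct
Uqcrh: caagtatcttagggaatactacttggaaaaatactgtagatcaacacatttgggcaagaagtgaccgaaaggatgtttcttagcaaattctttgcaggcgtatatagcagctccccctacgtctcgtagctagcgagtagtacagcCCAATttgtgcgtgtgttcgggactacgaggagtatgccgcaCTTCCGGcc
Ndufs5: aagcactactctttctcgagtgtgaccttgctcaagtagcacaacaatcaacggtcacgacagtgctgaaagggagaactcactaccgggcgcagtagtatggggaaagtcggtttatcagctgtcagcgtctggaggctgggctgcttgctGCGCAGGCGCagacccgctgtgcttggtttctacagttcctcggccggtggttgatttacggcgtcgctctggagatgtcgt

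Of the regulators of these motifs, Nrf1 and Gabpa were not called against WT in any genotype. Nrf1 had 23.6, 26.2 and 23.6 CPM in WT, 26.8, 22.4 and 24.4 for Blm KO, 20.4, 21.4 and 20.01 in Recql-labelled and 24.5, 26.6 and 23.7 in double-labelled libraries. Its log2 fold change in Recql-labelled libraries against WT was -0.25 (edgeR adjusted p = 0.0521), while double- against Recql-labelled libraries passed at 0.28 (edgeR adjusted p = 0.0404). Gabpa, which encodes the DNA-binding subunit of GABP, had a change of -0.01 in Recql-labelled libraries. The coactivator Ppargc1a was low throughout, at 0.98 to 2.61 CPM.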

How the data were processed

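Polyadenylated RNA was measured in 12 libraries of primary mouse embryonic fibroblasts, 3 per genotype. Bowtie2 2.1.0, RSEM 1.2.15 and the build mm10 are named, per the submitters' processing notes. What the authors deposited is a gene-level table of RSEM expected counts, estimates that need not be whole because RSEM shares ambiguous reads among genes. The annotation version, strand setting and read filters are not given in the sources used here. The values of 1 member are not reported here, though it stays in all counts. Genes of the mitochondrial DNA were not analysed here.

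Expected counts were rounded and tested in R 4.3.3 with edgeR 4.0.16 (filterByExpr, TMM scaling, robust quasi-likelihood F test, 1 mean per genotype over all 12 libraries, 8 residual degrees of freedom). P-values were Benjamini-Hochberg adjusted over 14876 genes and called under 0.05. Levels are TMM-scaled CPM. SE is the log2 fold change divided by the square root of F. Per-kilobase levels use the longest principal transcript in GENCODE M21. Summed levels were compared with exact permutation tests. In simulated counts for Recql-labelled against WT libraries, over 14718 genes, these steps recovered 42% of genes changed 1.5-fold and 80% of those changed 2-fold.

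Near-identical transcripts (at least 97% identity over 150 bases) were found with BLAST 2.17.0. Members and lists were chosen with earlier results of these data known. Genes named are members, up to 6 called in each direction per comparison with values by library, 1 core subunit per complex, the alternative isoforms, and up to 4 called genes of each list; Pdk1, Nrf1, Gabpa, Ppargc1a and the cell type markers with values were picked from their lists after their values were seen. Alternatives were RLE scaling, library totals, other low-count filters, DESeq2 1.42.0, fits on the groups compared, a replicate block, a Y-linked covariate, leaving out each library, and, chosen after seeing the data, summing near-identical copies.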

Additional observations from a re-analysis of the deposited data

Results flagged for a closer look

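The change from Blm KO to double-labelled libraries differed from the change from WT to Recql-labelled libraries for 4 members, by edgeR's test of the interaction with adjustment over all genes. The difference of log2 fold changes was 6.20 for Ndufs5 (-0.02 on the WT side and 6.17 on the Blm KO side, adjusted p = 0.0243), whose reads are shared with BC002163. It was 0.33 for Uqcrc2 (-0.32 and 0.01, adjusted p = 0.0252) and 0.41 for Atp5a1 (-0.45 and -0.04, adjusted p = 0.0288), both lower in 3 of 3 Recql-labelled libraries than in any WT library. It was -1.96 for Cox4i2 (1.502 and -0.45, adjusted p = 0.0416), which was higher in 3 of 3 Recql-labelled libraries. When the Y-linked level entered the fit as a covariate, none of the 4 passed, with edgeR adjusted p of 0.0691, 0.0529, 0.0675 and 0.0851 in the order given.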

How the results depend on the processing

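For Recql-labelled vs WT, 9 of 15 calls held under every alternative other than leaving out a library, and for double-labelled vs Recql-labelled 10 of 16. With the Y-linked covariate, Atp5c1, Ndufs8, Uqcrh and Uqcrq did not pass in Recql-labelled vs WT. Their edgeR adjusted p was 0.0876, 0.0711, 0.0986 and 0.107. Members lower in Blm KO vs WT numbered 0 with no filter, with the Y-linked covariate and with copies summed. The share called lower over all genes was then 0.209%, 0.148% and 0.377%. With copies summed, Ndufs5 stood at 0.0318. Members higher in double-labelled vs Blm KO numbered 0 with no filter, on the groups compared and with copies summed. Over all genes the share called higher was 0.599%, 0.0279% and 0.928% in these fits. Members lower in double-labelled vs Recql-labelled numbered 2 of 80 by DESeq2, beside 14.8% of all genes. In the interaction, members higher numbered 0 with no filter, 5 by DESeq2 and 0 with the Y-linked covariate. The share called higher over all genes was then 3.21%, 9.68% and 3.21%. Members lower in the interaction numbered 2 by DESeq2 and 0 with the Y-linked covariate, beside 7.97% and 2.31% of all genes. Ndufs5 stood at -0.0564 in the interaction with copies summed. The log2 ratio of summed CPM turned to -0.0249 (library totals) and -0.00566 (RLE) for Blm KO vs WT, and to -0.00292 (library totals) for double-labelled vs WT. The cause was not tested, except that summing copies removes the sharing of reads.

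Without 1 library in turn, members lower in Blm KO vs WT were 0 to 0, beside 0.106% to 0.384% of all genes. In Recql-labelled vs WT 5 to 13 were lower, beside 8.84% to 12.6% of all genes, and 0 to 3 higher, beside at least 9.03%. In double-labelled vs Recql-labelled 4 to 13 were higher, beside 7.2% to 12.5%, and 0 to 2 lower, beside 7.12% to 10.8%. In double-labelled vs Blm KO 0 to 1 were higher, beside 0.0398% to 2.11%. In the interaction 0 to 4 were higher, beside 1.93% to 6.98%, and 0 to 2 lower, beside 1.71% to 5.21%. The median for double-labelled vs WT ran from -0.00814 to 0.0785, Cox4i2 there from -0.23 to 0.37, and the summed log2 ratio from -0.0246 to 0.0382 for Blm KO vs WT and from -0.00356 to 0.0811 for double-labelled vs Blm KO.

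Whether the labels' replicate numbers pair the libraries could not be settled from the values. Of 18 same-numbered pairs 5 correlated above 0.1 (r from -0.17 to 0.23), and 8 of 18 correlated best with their own number. With the replicate block, members lower in the interaction numbered 0 (Cox4i2 was lost), beside 4.99% of all genes. In Recql-labelled vs WT 13 of 80 were lower, beside 16.3% of all genes. In double-labelled vs Recql-labelled 20 of 80 were higher, beside 13.7% of all genes.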

Other observations

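Sequence shared with other loci touches more members than Ndufs5, though how many reads were shared was not tested. Of the 84 members, 27 have a transcript of another gene with at least 97% identity over 150 bases, 16 of them at a separate locus, and for 3 members (Ndufs5, Cox7c and Atp5l) such a separate gene is in the count table. Cox7c stood at a mean of 66.9 CPM over the 12 libraries, and its copies Gm10012 and Gm12338 at 0.15 and 0.91 CPM. Among the called members, Uqcrc2 shares 507 bases with Pdzd9 on the opposite strand, Ndufb5 530 bases with Mrpl47 and Atp5j 175 bases with Gabpa. On the same strand, Atp5o shares 287 bases with Donson, which overlaps it. Also on the same strand, Atp5g2 is identical to Gm10175 over 645 bases and matches Gm10231 over a shorter stretch. Both copies of Atp5g2 lie at separate loci and are absent from the count table. Expected counts were not whole in 12 libraries for Cox7c, 8 for Atp5j, 1 each for Atp5g2 and Atp5l, and 0 for Atp5o. Pdzd9 had a mean of 0.19 CPM beside 101.6 for Uqcrc2, while Gabpa had 128 beside 69.9 for Atp5j. Mrpl47, a ribosomal protein gene, had 10.2 CPM beside 33.0 for Ndufb5 and, like Ndufb5, was called higher in double- than in Recql-labelled libraries (0.55, edgeR adjusted p = 0.00607).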
